A study of Mus musculus with 6 samples.

Results

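The classical cadherins, claudins, connexins and protocadherins, the proteins through which neighbouring cells adhere, seal the space between them and exchange small molecules, were examined in sorted mouse islet β cells of control and βDKO mice, which differ in how many mutant alleles they carry of the genes for Brg1 and Brm, the ATPases that drive Swi/Snf chromatin remodelling. Members were taken by 4 patterns of gene symbol (Cdh or Cldn followed by a number, Pcdh followed by letters or numbers, and Gja to Gje followed by a number). They numbered 138 of the 24421 rows of the deposited table and comprised 23 cadherins, 25 claudins, 20 connexins, 12 non-clustered protocadherins and 58 clustered protocadherins (14 alpha, 22 beta and 22 gamma). Of the 138, 25 were listed at 0 in every library.

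Classical cadherins bind the same or a related cadherin on the next cell through their extracellular repeats and hold the actin cytoskeleton through catenins. Claudins form the strands of tight junctions and set which ions and solutes pass between epithelial cells. Connexins assemble into gap junction channels, and in islets these channels are known to couple the electrical activity and calcium oscillations of β cells. Clustered protocadherins are best known from neurons, where each gene of the alpha and gamma clusters has its own promoter and variable first exon, spliced to constant exons shared by its cluster, and where a varying choice of promoters gives cells distinct surface identities.

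RNA-seq was carried out on 3 control and 3 βDKO samples of tdTomato-positive β cells, dispersed from islets of tamoxifen-treated mice and sorted by fluorescence with DAPI, at 7 weeks of age on a mixed C57BL/6J and 129SV background. Control mice were MIP-CreERT;Brg1f/+;Brm+/-;R26LSL-tdTomato/+, and βDKO mice were MIP-CreERT;Brg1f/f;Brm-/-;R26LSL-tdTomato/+. MIP-CreERT is a tamoxifen-inducible Cre driven by an insulin promoter. All 6 libraries therefore came from mice that carried the Cre driver, the reporter, tamoxifen exposure and at least 1 mutant allele of each ATPase, so neither group is wild type. Samples are numbered within each group, with no word on whether a number is 1 animal or a pool, so p-values speak only of sample-to-sample spread, part of which may be technical.

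Levels are in TPM, a measure of transcript abundance in which reads are divided by gene length and each library is brought to 1 total. Ins1 and Ins2 together took 42.6% to 48.3% of the total in controls and 6.37% to 8.93% in βDKO, which moves every other gene upwards on the TPM scale. Over the 10404 genes that reached 5 TPM in 3 libraries or more, the median log2 change was 0.83 on TPM. Each result is therefore also given after rescaling, that is after dividing each library by a median-of-ratios size factor (0.643 to 0.810 in controls, 1.34 to 1.38 in βDKO), which put that median at 0.03. Changes are log2 differences of βDKO minus control on values plus 1, tested with limma's empirical Bayes test and Benjamini-Hochberg adjustment over all genes tested. The words rose and fell are kept for genes with an adjusted p under 0.05 in 1 direction on both scales. A call on a single scale is given with that scale. Bulk RNA does not separate a change in the number of cells of a type from a change in RNA per cell.

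The whole-gene level of Smarca4, which encodes Brg1, was 9.0, 13.5 and 12.4 TPM in controls 1 to 3 and 10.6, 10.5 and 11.4 TPM in βDKO 1 to 3. Smarca2, which encodes Brm, was at 14.1, 27.5 and 26.6 TPM in controls and 25.0, 23.2 and 22.4 TPM in βDKO. The groups overlapped for both genes on TPM, and after rescaling both were lower in βDKO (log2 change -0.86, adjusted p = 5.62e-04 by limma for Smarca4, and -0.71, adjusted p = 0.0101 for Smarca2). A level summed over all exons does not test the deleted part of either gene. Reads recovered from the TPM values, known for each gene only up to a factor common to its libraries, summed to between 25388872 and 31282056 a library. βDKO 1 and 2 were the most alike, with an SD of 0.16 between their log2 values, where other same-group pairs gave 0.29 to 0.48. All 8 β-cell markers examined were present in every library, but 6 of the 8 fell in βDKO and all 8 were lower after rescaling. Of all genes tested, 4.61% fell and 21.1% were lower after rescaling. The median log2 change of the 8 was -3.81 on TPM and -4.66 after rescaling. Pdx1, 1 of the 2 that were higher on TPM, was at 246.7 to 312.9 TPM in controls and 328.9 to 376.8 TPM in βDKO. Markers of other islet cells were lower in βDKO in sum. Those of α cells summed to 2346 to 5048 TPM in controls and 551 to 844 TPM in βDKO. Those of δ cells summed to 2520 to 5002 TPM in controls and 1968 to 2541 TPM in βDKO, which overlapped. Of the 3 δ-cell markers tested, 1 rose and 1 fell, where 23.4% and 4.61% of all genes tested did. Markers of PP and epsilon cells summed to 1592 to 4019 TPM in controls and 608 to 891 TPM in βDKO. Summed acinar markers ran from 18.6 to 508.3 TPM in controls, highest in control 1, and from 16.5 to 129.2 TPM in βDKO.

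Of the 138 members, 27 reached the filter of 5 TPM in 3 libraries. On TPM 17 were higher and 5 lower in βDKO, against a background of 81.4% higher and 4.61% lower over all genes tested. After rescaling 13 were higher and 10 lower, against 23.4% higher and 21.1% lower over all genes. Taking both scales, 13 rose and 5 fell, with 23.4% and 4.61% of all genes tested doing the same. Outside the protocadherin clusters the split was 3 that rose (Cdh2, Cdh4 and Cldn23) and 4 that fell (Cdh22, Cldn4, Cldn8 and Gjd2) of 15 tested. The median log2 change of these 15 was 0.19 on TPM and -0.63 after rescaling, below the 0.83 and 0.03 of all genes tested. Of 12 clustered protocadherins that reached the filter, 10 rose and 1 fell, but 10 of the 12 did not reach 5 TPM in all 3 controls and entered through their βDKO values, so this count is a description, and the clustered genes are also tested below without any filter. Pcdhgc3, the 1 that fell, entered through the controls. Of the other 15, Cdh4 and Cldn12 passed the filter through βDKO and Cdh22 through the controls.

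**Figure D1:**
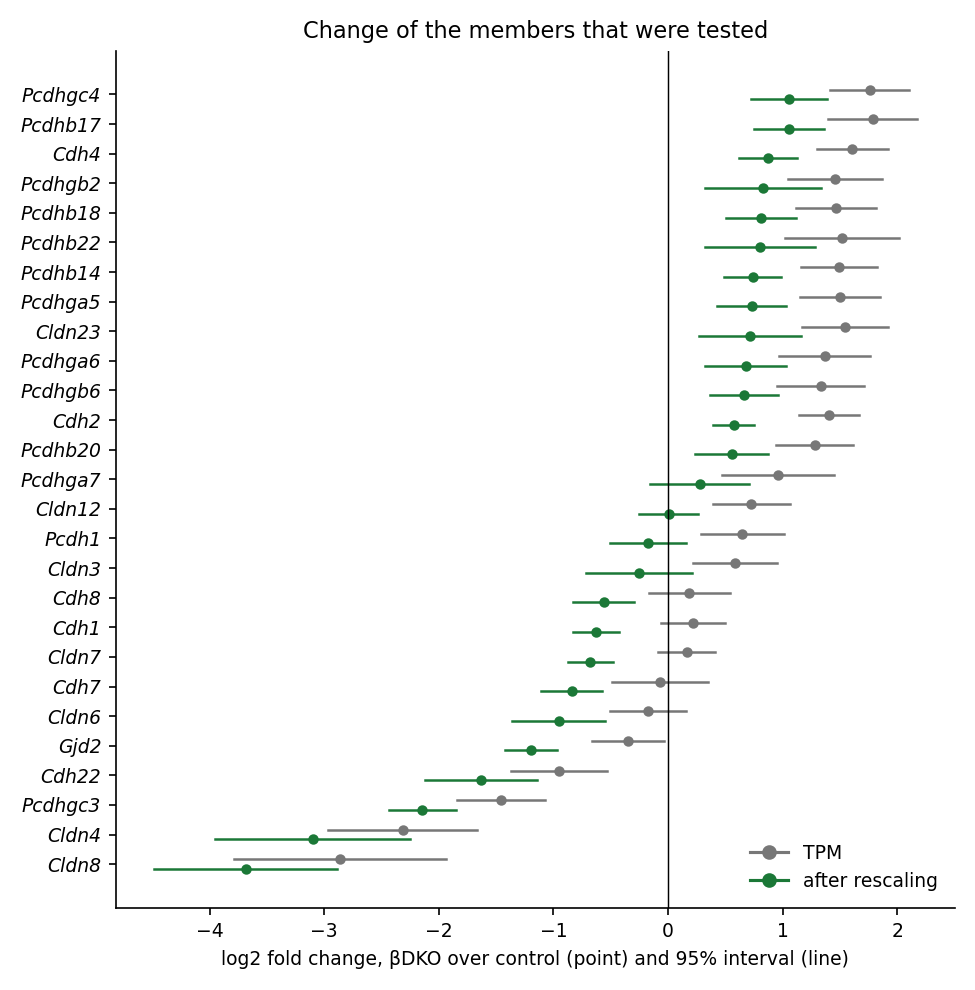
Log2 change of the 27 tested members, βDKO over control, on TPM (grey) and after rescaling (green), from limma with 3 libraries a group; points are estimates and lines 95% intervals. Cldn8 and Cldn4 lie farthest to the left on both scales and Pcdhgc3 is the clustered protocadherin to the left of 0, whereas Cdh1, Cdh7, Cdh8, Cldn6 and Cldn7 lie near 0 on TPM and left of it after rescaling.

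Cdh1 and Cdh2 made up most of the cadherin message, at 84.2% to 85.8% of the summed cadherin TPM in controls and 85.5% to 87.0% in βDKO, and the balance between the 2 shifted. Cdh1 encodes E-cadherin, the cadherin of epithelial adherens junctions, and stood at 118, 155 and 145 TPM in controls and 173, 164 and 148 TPM in βDKO. The groups overlapped on TPM and did not overlap after rescaling, where all 3 βDKO libraries were lower. The change was 0.22 (SE 0.12, adjusted p = 0.121 by limma) on the TPM scale and -0.63 (SE 0.09, adjusted p = 8.69e-04) after rescaling. Cdh2 encodes N-cadherin, the classical cadherin of neurons and heart muscle that endocrine cells also carry. Its level was 30.0, 36.8 and 36.6 TPM in controls against 94.8, 95.7 and 88.3 TPM in βDKO. Every βDKO library lay above every control on both scales. Cdh2 rose by 1.41 (SE 0.11, adjusted p = 2.52e-05) on TPM and by 0.57 (SE 0.08, adjusted p = 7.29e-04) after rescaling, a 2.69-fold and a 1.5-fold ratio of group means. A share needs no scale between libraries, but its size depends on the gene lengths behind the TPM. Cdh2 was 20.3%, 19.2% and 20.1% of the sum of Cdh1 and Cdh2 in controls and 35.4%, 36.8% and 37.4% in βDKO. Lengths implied by the recovered reads were 2768 bases for Cdh2, against 8066 exon bases, and 5258 for Cdh1, against 4574.

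Cdh4 encodes R-cadherin, a classical cadherin close to N-cadherin. It measured 3.36, 3.75 and 3.78 TPM in controls and 13.7, 12.4 and 13.3 TPM in βDKO. Libraries within a group lay close together and the groups were far apart. It rose by 1.61 (SE 0.13, adjusted p = 2.92e-05 by limma) on TPM and by 0.87 (SE 0.11, adjusted p = 5.06e-04) after rescaling. Cdh4 reached 5 TPM only in βDKO, and in the test without a filter it also rose (adjusted p = 1.47e-04 on TPM and 0.00135 after rescaling). Cdh22, a type II cadherin described mostly in brain, went the other way, with 8.07, 5.76 and 6.36 TPM in controls and 3.54, 3.05 and 2.39 TPM in βDKO. All 3 βDKO libraries were below the lowest control. It fell by 0.95 (SE 0.18, adjusted p = 0.00147) on TPM and by 1.64 (SE 0.21, adjusted p = 5.85e-04) after rescaling. It reached 5 TPM only in controls, and in the test without a filter it fell as well (adjusted p = 0.00406 on TPM and 0.00292 after rescaling).

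The type II cadherins Cdh7 and Cdh8 passed the test only after rescaling. Cdh7 was at 7.88, 11.7 and 12.4 TPM in controls and 10.1, 10.1 and 9.75 TPM in βDKO, with control 1 lowest of all and the groups overlapping. Its change was -0.07 (SE 0.18, adjusted p = 0.732 by limma) on TPM, or -0.25 (adjusted p = 0.044) without control 1, and -0.84 (SE 0.12, adjusted p = 8.07e-04) after rescaling. Cdh8 measured 5.93, 7.09 and 7.98 TPM in controls and 7.68, 7.76 and 8.78 TPM in βDKO. These values overlapped too, and the change was 0.19 (adjusted p = 0.273) on the TPM scale and -0.56 (adjusted p = 0.00545) after rescaling. Cdh24, a further type II cadherin, lay under the filter at 1.45, 3.18 and 3.25 TPM in controls and 4.11, 4.68 and 5.28 TPM in βDKO, groups that are apart on TPM and overlap after rescaling. Of the other 16 cadherins, 2 were at 0 throughout and 14 averaged under 1 TPM in both groups, with no library above 0.732 TPM. Cdh5, the VE-cadherin of endothelium, was among these, at 0.135 TPM in control 1 and 0 in the other 5 libraries.

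**Figure D2:**
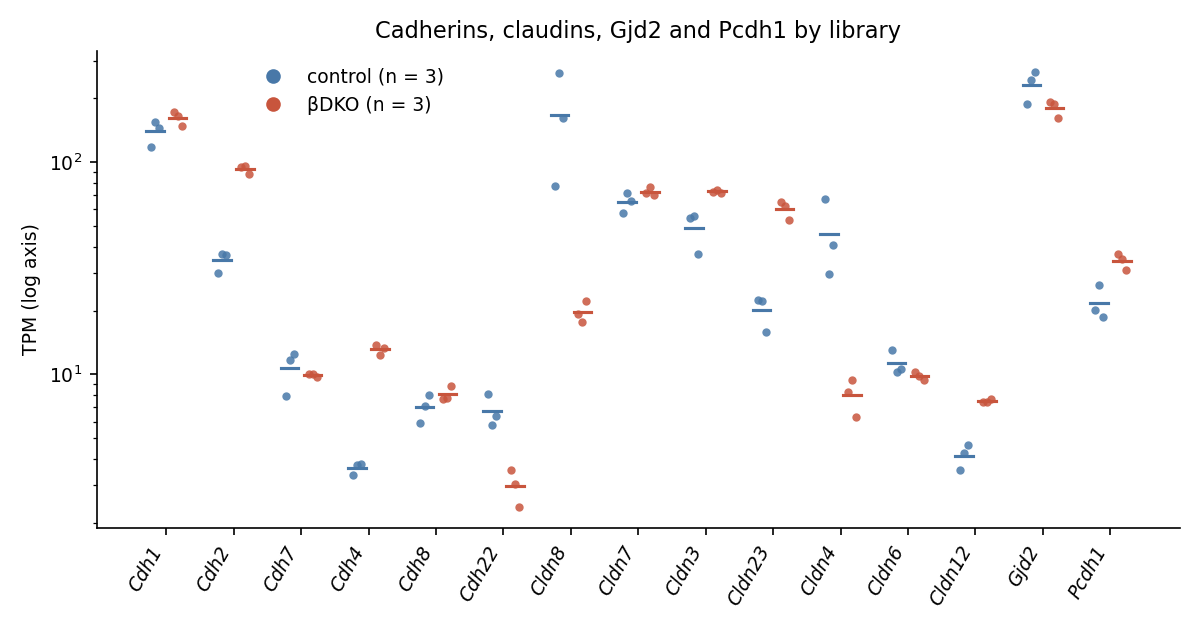
TPM of the tested cadherins and claudins, Gjd2 and Pcdh1 in each of the 6 libraries on a log axis; each point is a library and each bar the mean of 3 libraries. The βDKO points of Cldn8 and Cldn4 lie below all their controls and those of Cdh2, Cdh4 and Cldn23 above, while the points of Cdh1, Cdh7, Cdh8, Cldn6, Cldn7 and Gjd2 overlap on this scale.

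Summed claudin message was lower in βDKO and its composition differed. The sum was 302.6, 462.8 and 341.8 TPM in controls and 255.0, 258.6 and 241.6 TPM in βDKO, a ratio of 0.682 on TPM and 0.381 after rescaling, with the groups apart on both scales. Cldn8, Cldn7, Cldn3, Cldn4 and Cldn23 held 92.3% to 95.6% of the summed claudin TPM in every library. Cldn8 took 25.6%, 57.0% and 47.3% of it in controls and 7.59%, 6.83% and 9.17% in βDKO. Cldn23 took 4.64% to 7.45% in controls and 22.0% to 25.6% in βDKO. The size of such shares depends on the gene lengths behind the TPM, which are not given. Lengths implied by the recovered reads were 1103 bases for Cldn23, against 1848 exon bases, and 17858 for Cldn12, against 4228. Cldn8, a barrier-forming claudin known from the kidney's distal nephron, was at 77.4, 263.7 and 161.8 TPM in controls and 19.3, 17.7 and 22.2 TPM in βDKO. The controls were widely spread, with control 1 lowest, yet every βDKO library lay far below all of them. It fell by 2.86 (SE 0.39, adjusted p = 4.20e-04 by limma) on TPM and by 3.69 (SE 0.33, adjusted p = 2.26e-04) after rescaling, an 8.5-fold and a 14.8-fold ratio of the group means. Cldn4, which binds Cldn8 in kidney tubules and is a receptor for a clostridial enterotoxin, showed 66.9, 29.9 and 40.6 TPM in controls and 8.31, 9.38 and 6.34 TPM in βDKO. Here control 1 was the highest and the groups again did not overlap. Cldn4 fell by 2.31 (SE 0.28, adjusted p = 1.62e-04) on TPM and by 3.10 (SE 0.36, adjusted p = 5.83e-04) after rescaling.

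Cldn4 and Cldn3 are neighbours on chromosome 5 (GRCm38), at 134945119 to 134946934 and 134986214 to 134987472, and did not move alike. Cldn3, the other enterotoxin receptor, had 54.5, 55.7 and 36.9 TPM in controls and 72.3, 74.2 and 71.9 TPM in βDKO. It was higher in every βDKO library on TPM and overlapped after rescaling. The change was 0.58 (adjusted p = 0.00881 by limma) on the TPM scale and -0.25 (adjusted p = 0.334) after rescaling, the latter becoming -0.50 (adjusted p = 0.0127) without control 3. The difference between the 2 genes' changes was not tested. Cldn23 rose, from 22.5, 22.2 and 15.9 TPM in controls to 65.2, 62.5 and 53.2 TPM in βDKO. No βDKO library overlapped the controls on either scale. Its change was 1.54 (SE 0.16, adjusted p = 8.26e-05) on the TPM scale and 0.72 (SE 0.19, adjusted p = 0.0182) after rescaling, and the rescaled call was lost without βDKO 1 (adjusted p = 0.059) or without βDKO 2 (adjusted p = 0.057).

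Cldn7, an epithelial claudin also found on basolateral membranes, was at 57.9, 71.3 and 65.6 TPM in controls and 71.3, 76.3 and 70.0 TPM in βDKO. The values overlapped on TPM and were lower in all 3 βDKO libraries after rescaling. Its change was 0.16 (adjusted p = 0.184 by limma) on the TPM scale and -0.68 (SE 0.09, adjusted p = 5.25e-04) after rescaling. Cldn6, known from embryonic epithelia, had 13.1, 10.3 and 10.6 TPM in controls and 10.3, 9.81 and 9.43 TPM in βDKO, a change of -0.18 (adjusted p = 0.268) on the TPM scale and -0.96 (adjusted p = 0.00343) after rescaling. Like Cldn7, it was separate between groups after rescaling only. Cldn12, a claudin without the usual PDZ-binding end, stood at 3.54, 4.25 and 4.67 TPM in controls and 7.44, 7.40 and 7.63 TPM in βDKO. It was apart between groups on TPM (change 0.73, adjusted p = 0.00194) and level with the typical gene after rescaling (0.01, adjusted p = 0.965).

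Among claudins under the filter, Cldn2, which forms cation pores, had 1.11, 3.15 and 1.04 TPM in controls and 0, 0.0313 and 0.0952 TPM in βDKO. This rested on 221 reads in controls and 4 in βDKO. All βDKO libraries were near 0, and the ratio of controls to βDKO after rescaling was 72.3 (counting interval 27.8 to 267.6 at 95%, counting error only). With a filter of 1 TPM in 3 libraries, at which 6.04% of all genes fell on both scales, Cldn2 fell by 1.33 on TPM and by 1.60 after rescaling (adjusted p = 0.0034 by limma). Cldn2 passed that filter through the controls. In the test without a filter it fell as well (adjusted p = 0.00634 on TPM and 0.00789 after rescaling). Cldn11, the claudin of oligodendrocytes and Sertoli cells, was uneven among controls, at 4.86, 0.0442 and 2.71 TPM, and was at 0.200, 0.205 and 0.0520 TPM in βDKO. The groups overlapped because of control 2, and the test without a filter gave an adjusted p of 0.105 on TPM. Cldn15, a pore-forming claudin of intestine that is named here after its values were seen, had 0.226, 0.983 and 0.512 TPM in controls and 0.0505, 0.207 and 0.0526 TPM in βDKO, from 43 and 6 reads. The groups were apart, and without a filter, where 5.98% of all genes fell on both scales, it fell (adjusted p = 0.0493 by limma on TPM and 0.0354 after rescaling). Of the other 16 claudins, 10 were at 0 in every library and 6, Cldn15 included, averaged under 1 TPM in both groups, among them Cldn5 of endothelial tight junctions at 0.169 TPM in control 1 and 0 elsewhere.

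Markers of ductal cells, the pancreatic epithelium richest in tight junctions, summed to 251.8 to 362.4 TPM in controls and 199.6 to 207.6 TPM in βDKO over 7 of 7 markers measured. Nearly all of this was Krt7, at 350.7, 239.2 and 262.5 TPM in controls and 196.4, 191.2 and 191.9 TPM in βDKO, while Krt19 and Sox9, which define ducts, did not exceed 1.93 and 0.744 TPM in any library. Control 1 was the highest for the ductal sum, the acinar sum and Cldn4, and the lowest for Cldn8. The part of these cells in the claudin values was not tested. Summed immune markers were 123.3, 229.0 and 209.4 TPM in controls and 9.30 to 14.5 TPM in βDKO, led by C1qa. Of the 10 immune markers, 7 averaged 1 TPM or more in controls and 2 did in βDKO. Ptprc was at or under 0.0775 TPM in all libraries and Cd3e at 0 in 5 of the 6.

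Gap junction message was almost entirely Gjd2, which encodes Cx36, the connexin known to couple β cells. It made up 98.2% to 99.3% of the summed connexin TPM in controls and 96.7% to 97.5% in βDKO. Gjd2 was at 188.3, 242.7 and 264.6 TPM in controls and 191.7, 187.7 and 161.9 TPM in βDKO. On TPM the groups overlapped, because control 1 lay among the βDKO libraries. After rescaling they were apart, at 293, 300.4 and 326.7 in controls and 138.8, 140.1 and 121.1 in βDKO. The change was -0.35 (SE 0.14, adjusted p = 0.0402 by limma) on the TPM scale and -1.20 (SE 0.10, adjusted p = 5.61e-05) after rescaling. The TPM call did not hold without control 2, without control 3 or without any 1 of the βDKO libraries (adjusted p = 0.0512 to 0.129). With all 6 libraries it was also lost without a filter (adjusted p = 0.0746), with limma-voom on recovered reads (adjusted p = 0.0659, or 0.0678 with the 1 TPM filter) and with βDKO 1 and 2 averaged (adjusted p = 0.0563), so the fall rests on the rescaled values. Exons of Gjd2 overlap those of A530058N18Rik on the opposite strand by 57 bases, and the sources used here do not say whether counting used strand.

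The other connexins were low. Gjd3, a mouse connexin best known from the cardiac conduction system, measured 1.5, 1.28 and 0.971 TPM in controls and 4.02, 3.44 and 3.25 TPM in βDKO. It did not overlap on either scale, but with the 1 TPM filter it passed on TPM only (adjusted p = 7.97e-04 by limma, against 0.0913 after rescaling). Gjd3 passed that filter through βDKO. In the test without a filter it also passed on TPM only (adjusted p = 0.00153, against 0.113 after rescaling). Gja4, a connexin of arterial endothelium, was at 0.461, 0 and 0.161 TPM in controls and 1.66, 1.14 and 0.346 TPM in βDKO, which overlapped. Gja5, its arterial partner, was above 0 only in βDKO 3, at 0.0309 TPM. Gja1, which encodes the widely expressed Cx43, reached 0.173 TPM in control 1 and 0.0309 TPM in βDKO 2 and was at 0 elsewhere, and the liver connexins Gjb1 and Gjb2 did not exceed 0.00958 and 0.172 TPM. In all, 8 of the 20 connexins were at 0 throughout and 9 averaged under 1 TPM in both groups. Endothelial markers summed to 6.08 to 12.9 TPM in controls and 27.5 to 35.6 TPM in βDKO, mainly Esam and Egfl7, with Pecam1 at or under 0.153 TPM in every library and Cdh5 and Cldn5 at 0 in 5 of 6.

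Promoter sequences of the members that fell are shown so that the letters before the start of 3 such genes, 1 from each of the cadherin, claudin and connexin families, can be read beside their values. Of the 18 members that rose or fell, Cdh2 and the clustered protocadherins were left out by their position, and the RefSeq table (GRCm38.p6) held entries for 3 of the others, each 250 bases before to 50 bases after the gene's start, read 5′ to 3′ on the gene's strand, with capitals marking matches to the motifs searched. Cdh22 lies at chr2:165234688-165234987, Cldn4 at chr5:134946885-134947184 and Gjd2 at chr2:114013570-114013869, all on the minus strand.
Cdh22: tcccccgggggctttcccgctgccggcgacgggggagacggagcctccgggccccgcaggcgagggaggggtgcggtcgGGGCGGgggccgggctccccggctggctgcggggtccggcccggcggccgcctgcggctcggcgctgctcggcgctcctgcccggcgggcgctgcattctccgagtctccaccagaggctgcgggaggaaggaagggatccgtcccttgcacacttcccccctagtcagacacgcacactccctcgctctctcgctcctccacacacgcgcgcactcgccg
Cldn4: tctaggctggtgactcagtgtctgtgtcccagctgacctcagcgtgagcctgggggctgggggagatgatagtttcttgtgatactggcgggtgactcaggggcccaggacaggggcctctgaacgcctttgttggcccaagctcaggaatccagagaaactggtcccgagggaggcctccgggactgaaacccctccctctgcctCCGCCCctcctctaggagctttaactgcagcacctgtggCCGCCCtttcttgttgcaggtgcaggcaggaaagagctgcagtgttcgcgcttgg
Gjd2: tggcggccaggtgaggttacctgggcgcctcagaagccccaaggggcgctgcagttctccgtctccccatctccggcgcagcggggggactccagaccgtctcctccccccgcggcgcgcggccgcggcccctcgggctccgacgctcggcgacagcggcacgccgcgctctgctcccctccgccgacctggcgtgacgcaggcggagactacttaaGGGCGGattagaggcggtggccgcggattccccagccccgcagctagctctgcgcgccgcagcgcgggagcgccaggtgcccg
The motifs searched on both strands were the TATA box read as TATAAA, the CCAAT box, the GC box read as GGGCGG, the E-box CACGTG, the homeodomain core TAATTA and the Maf half-site TGCTGA. None overlapped another, and the GC box was the only one found. It began at base -171 from the start in Cdh22 and at base -33 in Gjd2, and on the other strand, where it reads CCGCCC, at bases -44 and -5 in Cldn4. Of 32851 promoters of the same length, 35.7% held GGGCGG, against 13.6% for the TATA box, 37.4% for the CCAAT box, 7.15% for the E-box, 5.29% for the homeodomain core and 19.5% for the Maf half-site. The 3 windows held 38 (Cdh22), 9 (Cldn4) and 41 (Gjd2) CpG dinucleotides, where the median promoter held 7. A match is a description of the letters and not a binding site.

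Of the 12 non-clustered protocadherins, Pcdh1, an epithelial protocadherin known from airways, was the single member past the filter. It was at 20.1, 26.3 and 18.7 TPM in controls and 36.8, 35.0 and 31.0 TPM in βDKO. The βDKO libraries were all higher on TPM and overlapped the controls after rescaling. The change was 0.65 (adjusted p = 0.00494 by limma) on the TPM scale and -0.17 (adjusted p = 0.352) after rescaling, or -0.33 (adjusted p = 0.0439) without control 3. Pcdh9, a neuronal protocadherin, appeared almost only in βDKO, at 0, 0.0182 and 0 TPM in controls and 0.851, 0.582 and 0.577 TPM in βDKO, from 5 and 480 reads. Only control 2 had any of its reads among controls, and every βDKO library was far above it. The ratio after rescaling was 73.4 (counting interval 31.2 to 227.1 at 95%), at a level that stayed under 1 TPM. Pcdh8, an activity-regulated protocadherin of neurons, had 0.171, 0.0964 and 0.0878 TPM in controls and 1.07, 0.845 and 0.492 TPM in βDKO, again with no overlap. In the test without a filter, in which 15.5% of all 17807 genes above 0 were higher on both scales, Pcdh9 (adjusted p = 0.00169 after rescaling) and Pcdh8 (adjusted p = 0.0298) rose. Of the other 9, 2 were at 0 throughout and 7 did not exceed 0.460 TPM in any library.

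The clustered protocadherins lie side by side on chromosome 18 (GRCm38.p6), the alpha cluster at 36930285 to 37188897, the beta cluster at 37264998 to 37521419 and the gamma cluster at 37661775 to 37841873. Most of the 58 genes were low in controls and higher in βDKO. Of the 58, 3 (Pcdha4, Pcdha6 and Pcdha7) were at 0 throughout. Exons of these 3 also overlap those of Gm42416, Gm37013 and Gm37388, respectively, on the same strand, and Pcdha4 has 494 of 5768 exon bases not shared. A 0 is therefore no sign that they are silent, and the part of the overlap in it was not tested. On TPM, all 3 βDKO values were above all 3 controls for 51 genes, below them for 1 gene, and overlapping for 3, where 59.1% of all genes above 0 were higher and 7.81% lower. After rescaling the counts were 41 higher, 1 lower and 13 overlapping, where 23.7% of all genes were higher and 24.2% lower. Among 4856 genes with a mean of 0.1 to 5 TPM over the 6 libraries, a range that the most abundant clustered genes exceed, the shares were 41.1% higher on TPM and 22.3% after rescaling. The median ratio of group means over the 55 genes above 0 was 3.70 on TPM and 2.06 after rescaling, against 1.75 and 0.9753 over all genes.

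A test without any filter took in the 55 genes that were above 0. On both scales 31 rose and 1 fell, and 23 did not pass on both, where 15.5% of all genes rose and 5.98% fell. On TPM alone 49 were higher, where 55% of all genes were. The median log2 change of the 55, on values plus 1 and so understated at these levels, was 1.05 on TPM and 0.56 after rescaling, against 0.57 and -0.01 over all genes. With the 1 TPM filter 39 of 41 clustered genes tested were higher on TPM, where 76% of all genes were (75.9% with limma-voom on recovered reads), but most entered through their βDKO values. The number of clustered genes at 1 TPM or more was 17, 22 and 21 in controls and 46, 43 and 43 in βDKO. Over all genes it was 11763, 12071 and 12000 in controls and 12546, 12498 and 12344 in βDKO. These counts are on TPM, the scale that the insulin share moves upwards in βDKO. The genes of a cluster share constant exons or neighbouring sequence and are not independent of each other.

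**Figure D3:**
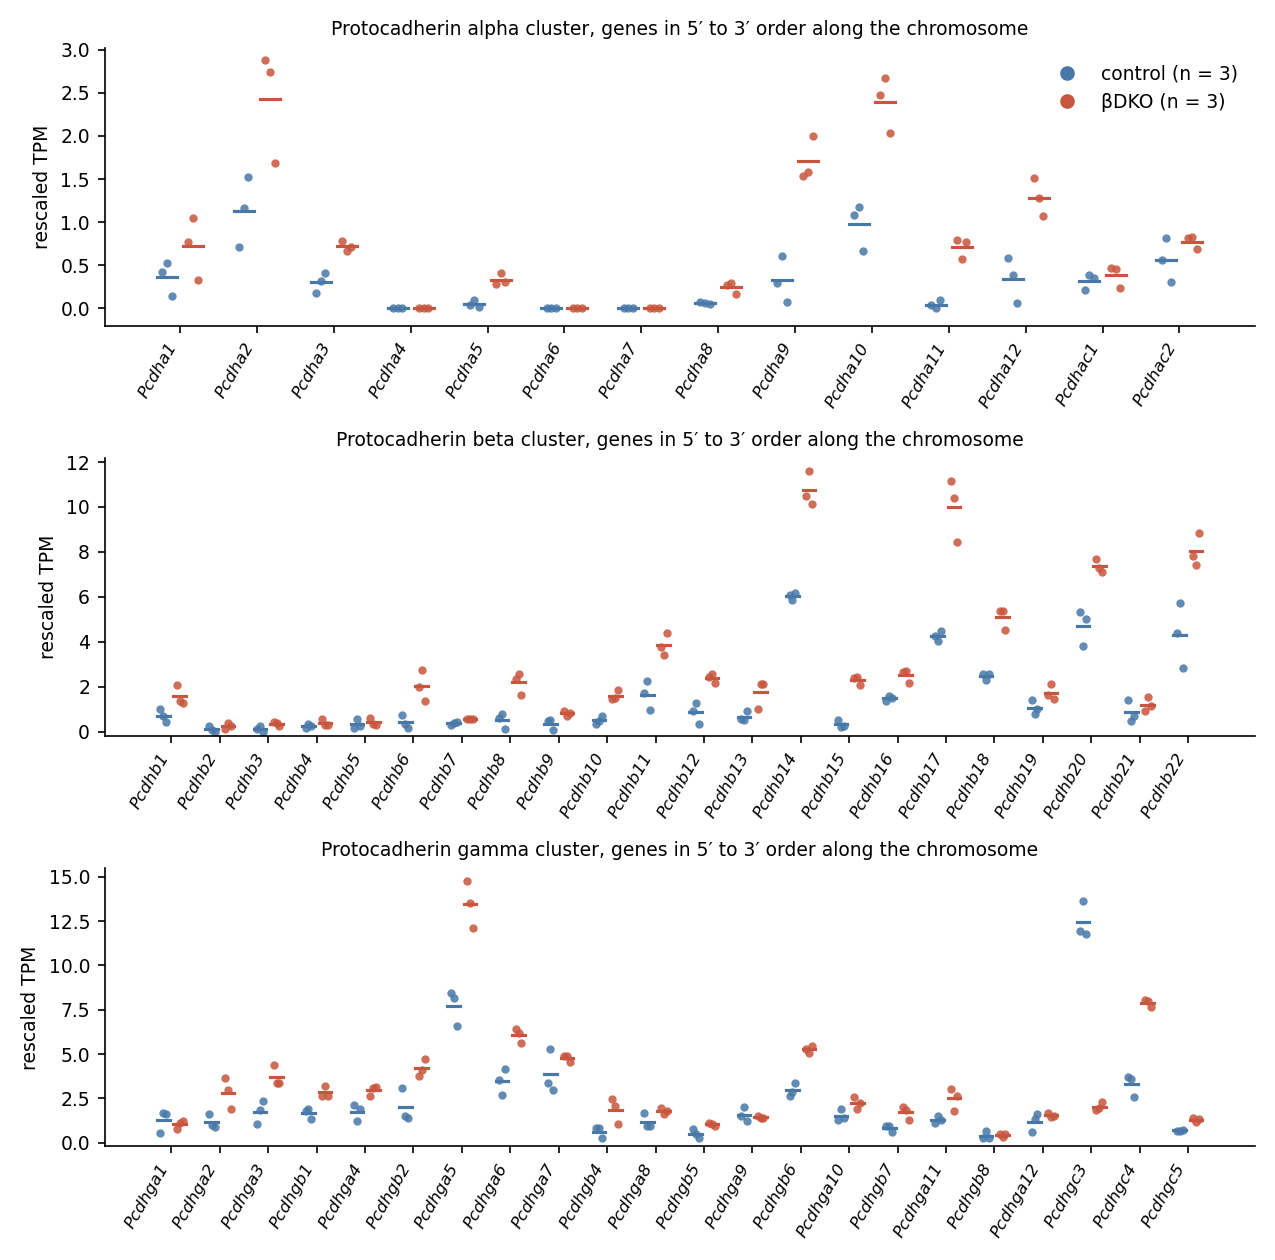
Rescaled TPM of each gene of the alpha, beta and gamma clusters in 5′ to 3′ order along the chromosome; each point is a library and each bar the mean of 3 libraries. Rises are spread along all 3 clusters, and near the 3′ end of the gamma cluster Pcdhgc3 is lower in all 3 βDKO libraries while its neighbour Pcdhgc4 is higher.

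Summed over the 58 genes, clustered protocadherin message was 59.3, 77.2 and 66.7 TPM in controls and 218.7, 207.1 and 190.7 TPM in βDKO. The ratio of group means was 3.03 on TPM and 1.69 after rescaling, and no library overlapped the other group on either scale. The alpha cluster was the lowest, at 2.70, 4.47 and 3.01 TPM in controls and 17.4, 16.8 and 13.4 TPM in βDKO, a 4.68-fold ratio on TPM and 2.61-fold after rescaling. The beta cluster summed to 22.2, 26.9 and 23.6 TPM in controls and 94.4, 93.6 and 84.3 TPM in βDKO, with ratios of 3.75 and 2.08. The gamma cluster, with 34.5, 45.8 and 40.1 TPM in controls and 106.9, 96.7 and 93.0 TPM in βDKO, had the smallest ratios, 2.46 and 1.37. All 3 sums were apart between the groups on both scales. Differences between the clusters in the size of the ratio were not tested. The levels of the 3 clusters also depend on how shared exons were counted. The median length implied by recovered reads was 6260 bases for alpha and 5508 for gamma genes, against 2481 and 2630 exon bases not shared. For beta genes it was 3775 against 3714.

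**Figure D4:**
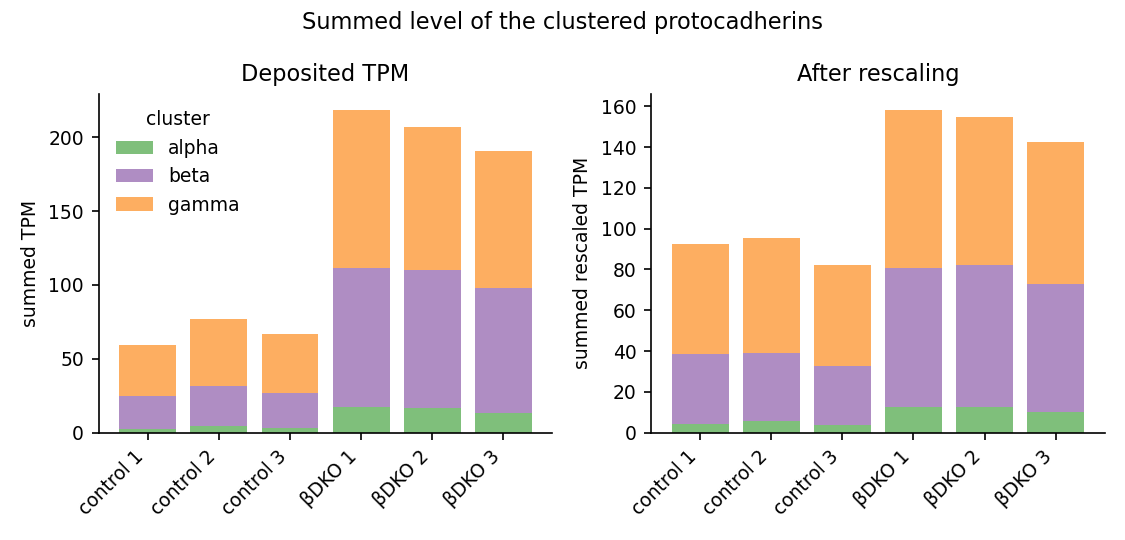
Summed level of the alpha, beta and gamma clusters in each library on TPM (left) and after rescaling (right); bars are single libraries and start at 0. The 3 βDKO bars stand at 190.7 to 218.7 TPM against 59.3 to 77.2 TPM in controls, and they remain higher after rescaling by a smaller margin.

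No alpha gene reached the filter of 5 TPM. All 11 alpha genes above 0 were higher in every βDKO library than in every control on TPM, as were 59.1% of all genes above 0. After rescaling 8 of the 11 were, beside 23.7% of all genes. Pcdha10 was at 0.696, 0.946 and 0.542 TPM in controls and 3.42, 3.59 and 2.71 TPM in βDKO, and Pcdha9 at 0.190, 0.495 and 0.0634 TPM against 2.12, 2.12 and 2.68 TPM. Both were several times higher in every βDKO library. With the 1 TPM filter, at which 22.4% of all genes rose on both scales, Pcdha2, Pcdha9, Pcdha10 and Pcdha12 rose, with rescaled changes of 0.68 to 1.04 and adjusted p = 0.00454 to 0.0375 by limma, each having passed that filter through its βDKO values. Without a filter Pcdha9, Pcdha10 and Pcdha12 rose as well, and Pcdha2 passed on TPM only (adjusted p = 0.0565 after rescaling). Pcdha11 gave the largest ratio of the clustered genes, from 4 reads in controls and 80 in βDKO, 15.3-fold after rescaling (counting interval 5.74 to 57.5 at 95%). The C-type genes at the 3′ end, Pcdhac1 and Pcdhac2, overlapped after rescaling, with ratios of 1.23 and 1.38.

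The beta cluster, whose genes are each a single coding exon with no constant part, gave 21 of 22 genes higher in all βDKO libraries on TPM and 18 after rescaling. Of all genes above 0, 59.1% were on TPM and 23.7% after rescaling. Its message came mostly from the 9 genes nearest the 3′ end, Pcdhb14 to Pcdhb22, which held 74.4% to 84.0% of the sum in controls and 72.7% to 73.3% in βDKO. Pcdhb14 was at 3.90, 4.71 and 4.98 TPM in controls and 14.5, 15.5 and 13.6 TPM in βDKO. It rose by 1.49 (SE 0.15, adjusted p = 5.78e-05 by limma) on TPM and by 0.74 (SE 0.11, adjusted p = 0.00103) after rescaling. Pcdhb17 went from 2.74, 3.26 and 3.62 TPM in controls to 15.4, 13.96 and 11.3 TPM in βDKO. Its rise was the largest of the tested beta genes, 1.79 (SE 0.17, adjusted p = 4.80e-05) on the TPM scale and 1.06 (SE 0.13, adjusted p = 4.86e-04) after rescaling. Pcdhb18 had 1.64, 1.85 and 2.08 TPM in controls and 7.44, 7.21 and 6.04 TPM in βDKO and rose by 1.46 on the TPM scale and 0.81 (adjusted p = 0.00178) after rescaling. None of these 3 genes overlapped between groups on either scale. No beta gene reached 5 TPM in any control, so the 5 that were tested at that filter passed it through βDKO. In the test without a filter, where 15.5% of all genes rose on both scales, these 5 rose too, with adjusted p = 0.00181 to 0.0348 by limma after rescaling.

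Pcdhb20 measured 3.43, 3.09 and 4.04 TPM in controls and 10.6, 9.74 and 9.50 TPM in βDKO, a change of 1.28 on the TPM scale and 0.56 (adjusted p = 0.0131 by limma) after rescaling. Pcdhb22 had 2.83, 4.64 and 2.27 TPM in controls and 10.8, 9.95 and 11.8 TPM in βDKO, a change of 1.52 on the TPM scale and 0.80 (adjusted p = 0.0156) after rescaling. Both were apart between groups, but the rescaled call of Pcdhb20 was lost without βDKO 1 (adjusted p = 0.0619) or βDKO 2 (adjusted p = 0.0508), and that of Pcdhb22 without βDKO 3 (adjusted p = 0.0541). Pcdhb21 and Pcdhb22 share 455 bases of exon on the same strand, so reads there may have been divided or discarded. Pcdhb15 stood out among the lower genes, at 0.321, 0.177 and 0.218 TPM in controls and 3.28, 3.23 and 2.75 TPM in βDKO, a 6.92-fold ratio after rescaling. With the 1 TPM filter it rose by 1.72 on TPM and 1.31 (adjusted p = 6.07e-04) after rescaling. At that filter Pcdhb1, Pcdhb6, Pcdhb8, Pcdhb10, Pcdhb11, Pcdhb12, Pcdhb13 and Pcdhb16 also rose, and Pcdhb19 and Pcdhb21 passed on TPM only. None of these genes, nor Pcdhb15, had 1 TPM in all 3 controls, so they too passed the filter through βDKO. Without a filter Pcdhb15 and the same genes rose apart from Pcdhb1, which passed on TPM only (adjusted p = 0.0567 after rescaling, and 0.0507 with limma-voom at the 1 TPM filter). Pcdhb9, at 0.294, 0.433 and 0.0665 TPM in controls and 1.254, 0.942 and 1.08 TPM in βDKO, was apart between groups and did not reach the 1 TPM filter, nor did the other 5 beta genes.

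In the gamma cluster, 19 of 22 genes were higher in all βDKO libraries on TPM and 15 after rescaling, and 1 was lower. Of all genes above 0, 59.1% were higher on TPM and 23.7% after rescaling, and 7.81% and 24.2% were lower. Pcdhga5 was the most abundant clustered gene in each βDKO library, at 5.41, 6.57 and 5.34 TPM in controls and 20.4, 18.1 and 16.2 TPM in βDKO. It rose by 1.503 (SE 0.15, adjusted p = 6.56e-05 by limma) on TPM and by 0.73 (SE 0.13, adjusted p = 0.0028) after rescaling. Pcdhga6 had 2.29, 2.19 and 3.36 TPM in controls and 8.89, 8.30 and 7.54 TPM in βDKO and rose by 1.37 on the TPM scale and 0.68 (adjusted p = 0.00887) after rescaling. The groups were apart for both. Pcdhga7 was at 2.17, 4.28 and 2.40 TPM in controls and 6.74, 6.59 and 6.12 TPM in βDKO, with control 2 overlapping βDKO after rescaling. It passed on TPM (0.96, adjusted p = 0.00305) and not after rescaling (0.28, adjusted p = 0.26, or 0.48 and 0.0308 without control 2).

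Of the gamma B genes, Pcdhgb2 was at 1.98, 1.23 and 1.16 TPM in controls and 5.21, 5.49 and 6.33 TPM in βDKO and rose by 1.46 on the TPM scale and 0.83 (adjusted p = 0.0169 by limma) after rescaling. The groups did not overlap, yet the rescaled call was lost without control 2 or without βDKO 3 (adjusted p = 0.0558 in each case). Pcdhgb6 had 1.71, 2.31 and 2.72 TPM in controls and 7.29, 6.78 and 7.29 TPM in βDKO, apart on both scales, and rose by 1.33 on the TPM scale and 0.66 (adjusted p = 0.00429) after rescaling. With the 1 TPM filter Pcdhga2, Pcdhga3, Pcdhga4, Pcdhga11, Pcdhgb1, Pcdhgb4, Pcdhgb7 and Pcdhgc5 also rose, while Pcdhga8, Pcdhga9, Pcdhga10, Pcdhga12 and Pcdhgb5 passed on TPM only. Of those that rose, only Pcdhgb1 had 1 TPM in all 3 controls. Without a filter Pcdhga4 and Pcdhgb4 passed on TPM only (adjusted p = 0.053 and 0.0565 by limma after rescaling), and the other 6 rose. Pcdhga1, at 0.343, 1.35 and 1.30 TPM in controls and 1.07, 1.48 and 1.65 TPM in βDKO, overlapped and passed on neither scale.

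The C-type genes at the 3′ end of the gamma cluster went in opposite directions. Pcdhgc3, a C-type protocadherin with a steadier and broader expression than the alternate genes, was the highest clustered gene in each control, at 7.69, 11.03 and 9.52 TPM, and was at 2.59, 2.62 and 3.07 TPM in βDKO. All βDKO libraries lay well below the lowest control. It fell by 1.46 (SE 0.17, adjusted p = 1.24e-04 by limma) on TPM and by 2.14 (SE 0.13, adjusted p = 1.02e-05) after rescaling, a 6.10-fold lower group mean on the latter scale. Its share of the summed gamma TPM, which needs no scale, was 22.3%, 24.1% and 23.7% in controls and 2.43%, 2.71% and 3.30% in βDKO. Pcdhgc4, the next gene downstream, was at 2.39, 2.91 and 2.09 TPM in controls and 11.1, 10.8 and 10.2 TPM in βDKO. Its groups were as clearly apart in the other direction, and it rose by 1.76 (SE 0.15, adjusted p = 3.23e-05) on TPM and by 1.06 (SE 0.14, adjusted p = 7.37e-04) after rescaling. Of the gamma genes tested at 5 TPM, Pcdhgc3 passed that filter through the controls, and those other than Pcdhga5 and Pcdhgc3 through βDKO. Without a filter Pcdhga6, Pcdhgb2, Pcdhgb6 and Pcdhgc4 rose too (adjusted p = 0.00252 to 0.0353 by limma after rescaling). In that test Pcdhgc3 was the 1 gamma gene that fell. Pcdhgc5, the last gene, had 0.432, 0.545 and 0.604 TPM in controls and 1.95, 1.57 and 1.80 TPM in βDKO.

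Exons of all 22 gamma genes include the constant exons of the cluster in the GENCODE annotation, and the alpha genes share theirs likewise, so the values of single alpha and gamma genes depend on how reads from shared exons were assigned, which the sources used here do not give. Exons of Pcdhgc3 also overlap those of BC037039 on the opposite strand by 1559 bases. Other clustered genes with such overlaps include Pcdhga10 (2613 bases), Pcdhga11 (1381) and Pcdhgb7 (771) with Gm26672, and Pcdhb12 (1927) with Gm37446. Beta genes have no constant exons.

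The cytoplasmic partners of these families were read from lists of genes, and their counts stand beside the shares of all genes tested, of which 23.4% rose, 4.61% fell, 21.1% were lower after rescaling and 81.4% were higher on TPM. Of 12 tested catenins and plakophilins, 5 rose, and 4 others were lower after rescaling. Vcl, the vinculin that links catenins to actin, went from 4.57, 6.51 and 6.32 TPM in controls to 37.9, 32.6 and 33.0 TPM in βDKO, and Ctnna1, the α-catenin, from 57.7, 72.3 and 71.7 TPM to 223.8, 216.0 and 248.7 TPM. Ctnna2 and Ctnnd2, the neural catenins, also rose, with rescaled changes of 1.41 and 0.82, Ctnna2 having passed the filter through βDKO. Ctnnb1, the β-catenin that binds cadherin tails, was at 97.2, 118.7 and 129.0 TPM in controls and 99.4, 96.6 and 108.0 TPM in βDKO, overlapping on TPM and lower after rescaling (-1.02, adjusted p = 6.90e-05 by limma). The median rescaled change of the 12 was 0.10, beside 0.03 for all genes tested.

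Of 19 tested partners of claudins in tight junctions, 6 rose, and 4 others were lower after rescaling, shares near the 23.4% and 21.1% of all genes tested. Lsr, which recruits proteins to the corners where 3 cells meet, rose from 20.4, 22.6 and 22.8 TPM in controls to 96.8, 100.5 and 86.8 TPM in βDKO. Every βDKO library was several times above the controls (rescaled change 1.23, adjusted p = 4.17e-05 by limma). The junctional adhesion molecule Jam3 (1.42) and Marveld2, the tricellulin of those same corners (0.74), rose as well on the rescaled log2 scale. Of the remaining cadherin superfamily, 3 of 9 tested rose: Clstn3, a calsyntenin, from 9.92, 9.99 and 6.52 TPM to 130.2, 125.6 and 69.8 TPM, and the desmosomal cadherins Dsc2 and Dsg2 (rescaled changes 0.54 and 0.40). Of 4 tested pannexins and connexin regulators, all 4 were higher on TPM, as were 81.4% of all genes, with rescaled changes between -0.36 and 0.31 that did not pass.

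Of 7 tested immunoglobulin adhesion molecules, 3 rose, where 23.4% of all genes did. Epcam, an epithelial adhesion molecule known to bind Cldn7, went from 186.4, 220.7 and 230.6 TPM in controls to 1310.3, 1321 and 1154 TPM in βDKO. Its rescaled change was 1.72 (adjusted p = 8.12e-06 by limma), and Ncam1 and Nfasc rose by 0.97 and 0.50 on that scale. Of 11 tested regulators of cadherin genes and of shedding, 1 rose and 2 fell, where 23.4% and 4.61% of all genes did. Ovol2, a repressor of mesenchymal genes in epithelia, was at 20.8, 37.4 and 33.5 TPM in controls and 11.2, 9.32 and 14.4 TPM in βDKO, and Esrp2, an epithelial splicing regulator, at 8.55, 8.51 and 10.1 TPM against 3.88, 1.94 and 3.604 TPM. Esrp2 passed the filter through the controls. Both fell without overlap, by 2.10 and 2.003 on the rescaled log2 scale. Zeb1, known to repress Cdh1 in epithelial cells, had 3.21, 6.48 and 8.19 TPM in controls and 18.3, 18.0 and 15.0 TPM in βDKO and rose by 0.69 (adjusted p = 0.0343) after rescaling, a call lost in the test without a filter (adjusted p = 0.0683). Ctcf and Rad21, whose products organise protocadherin promoters in neurons, passed on TPM only (rescaled changes -0.14 and 0.21).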

How the data were processed

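The authors deposited 1 table of TPM per gene and library, per the file headers, with every column summing to 1000000. The submitters' processing notes name FastQC, Trimmomatic, HISAT2, HTSeq, DESeq2 and mm10. The sources used here do not give versions, roles, gene lengths or strand use. Lengths implied by the recovered reads lay within 1.25 times of the GENCODE exon length for 39.9% of 10405 genes. Levels of different genes are therefore less comparable than levels of 1 gene between libraries. Groups came from the sample titles. The 10404 genes that reached 5 TPM in 3 libraries or more were tested as log2(TPM + 1), and again after division by median-of-ratios size factors, with limma 3.58.1 in R 4.3.3 (empirical Bayes, robust, mean-variance trend, group as the only factor, all 6 libraries, two-sided, Benjamini-Hochberg, 0.05). Changes on this scale understate those of low genes. Every tested member is named with each library's value. Under the filter, members with a group mean of 1 TPM or more and 10 marker members are named, and of each partner list up to 4 genes with the smallest rescaled adjusted p among those passing in 1 direction on both scales, Ctnnb1, Ctcf and Rad21 being added after their values were seen. A result that this rule takes is not reported here. Members and lists were chosen with earlier results of these data known.

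Low values of a gene stood in ratios of whole numbers, from which reads were recovered up to a factor common to its libraries. Whole numbers within 0.01 of a read were obtained for 16625 of 16625 rows (100%) with values in 2 or more libraries, and limma-voom on these reads was an alternative. Counting intervals cover counting error only. The deposited gene names of 27 rows had become dates and match no member. The limma fits, but not read recovery, were tested on simulated data. Same-numbered control and βDKO samples did not deviate together, so no pairing was used. With 3 libraries a group, no single-gene permutation test could give a p under 0.1, and none was used. Exons and coordinates are from GENCODE M21 (GRCm38) and RefSeq (GRCm38.p6), and protein sequences were not used here. The alternatives were a lower filter or none, other pseudocounts, another scaling factor without hormone genes, limma without robust shrinkage, a replicate block, βDKO 1 and 2 averaged, and each library left out.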

Additional observations from a re-analysis of the deposited data

How the results depend on the processing

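The filter on low values moved the counts of members most. With 1 TPM in 3 libraries in place of 5, 47 members rather than 17 were higher on TPM and 34 rather than 13 after rescaling. Without a filter these were 60 and 36, and with limma-voom on recovered reads and the 1 TPM filter, an alternative chosen after seeing the data, 47 and 34. Over all genes the shares fell as the filter loosened, from 81.4% at 5 TPM to 76% at 1 TPM and 55% without a filter on TPM, and from 23.4% to 22.4% and 15.5% after rescaling (75.9% and 23.2% with limma-voom). The added members were mostly clustered protocadherins that entered through their βDKO values. Leaving out each library in turn gave 17 to 17 members higher and 4 to 6 lower on TPM, and 11 to 13 higher and 10 to 12 lower after rescaling. Ratios of the summed clustered level were then 2.86 to 3.26 on TPM and 1.62 to 1.74 after rescaling. Clustered genes higher without overlap numbered 51 to 53 and 42 to 46 on the 2 scales. Leaving out a library can only keep or raise that number, so it is no check. A replicate block left the counts of members at 17, 5, 13 and 10, although same-numbered samples correlated at only -0.08, -0.02 and 0.20 and did not each correlate best with their own number. Over 27 genes and 837 comparisons of a gene's value under an alternative, 815 kept their side of the threshold, 18 lost the call and 4 gained one. No change that passed in either of the 2 fits compared had the opposite sign in the other. Changes of sign between values that passed in neither were not counted. The calls lost were those of Gjd2 on TPM and of Cldn23, Pcdhb20, Pcdhb22 and Pcdhgb2 after rescaling, with the values of single libraries given beside each gene, and the cause was not tested. With βDKO 1 and 2 averaged 3 calls were lost, of which only that of Gjd2 is described above. Depth limits the members under 1 TPM, many of which rest on fewer than 100 reads a group.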
